A study of Mus musculus with 8 samples.

Results

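The spinal cord progenitors described here are 379 cells of 37211 that passed quality control in the E8.5 libraries of a chimaera experiment, and 49866 cells passed in the whole series. A cell was taken when it held at least 1 UMI (unique molecular identifier, a tag that marks 1 captured RNA molecule) of Sox2, of at least 2 of the 6 genes Sox1, Pax6, Nkx6-1, Olig2, Dbx2 and Olig3, and of at least 1 of the 3 genes Hoxb8, Hoxb9 and Hoxc8, with no UMI of T, En1 or En2. These 13 genes chose the cells, so their values are given as a description, without a test result. At E7.5 only 1 cell met the same rule, and it was not used further.

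The study marked Tet-TKO mouse ES cells, which lack Tet1, Tet2 and Tet3, with tdTomato, injected them into WT blastocysts, and separated the cells of pooled embryos by flow sorting. The tdTomato+ fraction held Tet-TKO cells of a C57BL/6J-129Sv background, and the tdTomato- fraction held WT host cells of a C57BL/6J background. Both fractions came from chimaeric embryos without a drug or other treatment. 10x Genomics 3′ v3 libraries of E8.5 cells gave 4 Tet-TKO and 2 WT host replicates, and Tet-TKO libraries 1 to 4 gave 46, 103, 77 and 36 spinal cord progenitors, where the 2 WT host libraries gave 29 and 88. No labelled library held tdTomato+ WT cells, so genotype, strain background and ES cell origin cannot be told apart. Since embryos were pooled before sorting, the spread between libraries is not the spread between embryos, and nothing in the labels says that the libraries came from separate litters.

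In the vertebrate neural tube, Sox2 maintains dividing progenitors, while Hedgehog ligands from the notochord and floor plate and BMP and Wnt ligands from the roof plate assign progenitors to bands along the dorsal to ventral axis. Nkx6-1 and Olig2 mark ventral bands, Dbx2 marks intermediate ones, Pax6 spans intermediate and part of the ventral bands, and Olig3 marks dorsal ones as well as cells next to the floor plate. Hox genes and Cdx factors assign position along the anterior to posterior axis, and retinoic acid from the somites moves cells from the caudal progenitor pool, which FGF and Wnt maintain, into the neural tube.

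The E8.5 libraries held 65601218 to 136982886 UMIs in all and 1012 to 9552 cells after quality control. Tet-TKO libraries 3 and 4 stood apart, with 2304 and 1012 such cells and a median of 41339 and 68450 UMIs per spinal cord progenitor, against 13948 to 22722 in the other 4 libraries. The summed counts of Tet-TKO libraries 1 and 2 differed by 1.37 times the sampling variance and those of libraries 3 and 4 by 2.55 times, while the other Tet-TKO pairs differed by 5.66 to 8.64 times and the WT host pair by 1.44 times. A tdTomato UMI was found in 70.9% to 94.4% of the Tet-TKO progenitors and in 0 of 117 WT host progenitors, which allows a share of up to 2.56% of cells with such a UMI. Since part of the Tet-TKO progenitors showed no tdTomato UMI, this is no limit on the share of cells that carry the reporter. Between 0 and 27 barcodes occurred in both of any 2 E8.5 libraries, and 2 progenitors carried such a barcode. Doublet scoring marked 7 of 46, 18 of 103, 7 of 77 and 0 of 36 Tet-TKO progenitors and 7 of 29 and 17 of 88 WT host ones. Over all barcodes the marked share was set at 5.78%, 7.80%, 2.05% and 0.990% in the Tet-TKO libraries and at 7.10% and 7.62% in the WT host ones. Marked cells were thus more frequent among the progenitors in every library except Tet-TKO library 4.

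Between 20.2% and 35.1% of the cells of a library had a Sox2 UMI. The requirement for no T, En1 or En2 UMI came last. It removed 11 of 57, 39 of 142, 31 of 108 and 32 of 68 cells in the Tet-TKO libraries, and 8 of 37 and 10 of 98 in the WT host ones. Just outside the rule lay 308 cells that met every other condition with only 1 of the 6 progenitor genes, and just inside lay 205 cells with 2 of them. A further 122 cells had 3 of the genes, 48 had 4, 4 had 5, and none had all 6.

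Among the 379 cells, Pax6 was found in 320 (84.4%), Sox1 in 275 (72.6%), Nkx6-1 in 188 (49.6%) and Olig3 in 139 (36.7%). Olig2, which specifies motor neuron progenitors, and Dbx2, which marks progenitors of intermediate interneurons, were each found in 33 cells (8.71%). Sox1 and Pax6 occurred together in 238 cells, and 92 cells had these and none of the other 4 genes, which is 24.3% of the cells. Of the 33 cells with Olig2, 29 also had Nkx6-1, whereas only 1 had Olig3 and 1 had Dbx2. Nkx6-1 and Olig3 occurred together in 63 of the 139 cells with Olig3. Every cell had to hold at least 2 of these genes, so such pairs partly follow from the rule. Hoxb8 was found in 343 cells (90.5%), Hoxb9 in 201 (53.0%) and Hoxc8 in 119 (31.4%).

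The levels of these genes are given as CPM, the UMIs of a gene in the summed cells of a library scaled to a library sum of 1e+06 UMIs. Sox2 was at 220, 247, 163 and 184 CPM in the Tet-TKO libraries, numbered 1 to 4, and at 336 and 267 CPM in the WT host ones. Pax6 was at 88.1, 153, 180 and 230 CPM against 99.0 and 128 CPM. Nkx6-1 was at 25.4, 53.3, 75.8 and 80.9 CPM against 33.6 and 46.5 CPM. For Pax6 and Nkx6-1 the highest values were in the deep Tet-TKO libraries 3 and 4, and the range of the Tet-TKO libraries covered both WT host libraries. Olig2 was at 1.82, 0.628, 8.43 and 20.0 CPM against 0 and 13.1 CPM. Olig3 ran the other way, at 28.2, 25.1, 16 and 6.67 CPM against 46.0 and 30.1 CPM, with its lowest values in libraries 3 and 4. Among the genes given here Sox1 varied least, between 53.6 and 72.9 CPM over the 6 libraries.

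The label of the cells was checked with genes the rule did not use. A list of 12 pan-neural genes, such as Ptn and Sox11, summed to 1505 to 2087 CPM in the progenitors and to 584 to 947 CPM in the other E8.5 cells. It was higher in the progenitors in 6 of 6 libraries, but lower than in midbrain-hindbrain boundary cells, at 2166 to 3121 CPM, in 6 of 6. Intermediate domain genes summed to 118 to 228 CPM against 64.8 to 89.4 CPM in the other cells and were higher in 6 of 6 libraries. They were also higher than in anterior neural cells in 5 of 6, but lower than in midbrain-hindbrain boundary cells, at 157 to 306 CPM, in 4 of 6. Floor plate and ventral genes, at 26.3 to 133 CPM against 15.7 to 41.5 CPM in the other cells, were higher in 5 of 6. They were lower than in anterior neural cells in 5 of 6 and than in boundary cells in 4 of 6. These 2 lists thus do not set the progenitors apart from other neural cells. Dorsal genes, at 166 to 355 CPM against 183 to 281 CPM in the other cells, were higher in only 2 of 6. Genes of retinoic acid signalling summed to 1500 to 1913 CPM against 648 to 957 CPM, and genes of the Hedgehog pathway to 283 to 539 CPM against 196 to 412 CPM, each higher in 6 of 6 libraries. The anterior neural list, with Otx2 and Six3, reached only 22.7 to 56.5 CPM, where anterior neural cells of the same libraries had 547 to 983 CPM and all other E8.5 cells 35.2 to 89.3 CPM. The hindbrain list of 7 genes summed to 112 to 180 CPM in the progenitors and to 52.3 to 84.4 CPM in the other E8.5 cells. It was higher in the progenitors in 6 of 6 libraries, also against anterior neural and midbrain-hindbrain boundary cells. In caudal progenitors, described further on, it summed to 147 to 213 CPM, and the spinal cord progenitors were lower in 4 of 6. Of this list, Hoxb1, a gene also active in the hindbrain, was at 66.3, 60.2, 45.5 and 47.6 CPM in the Tet-TKO and at 103 and 77.2 CPM in the WT host progenitors, against 18.2 to 27.1 CPM in the other E8.5 cells. Hoxa2 and Gbx2, which also act in the hindbrain, were at 17.7 to 34.7 and 16.6 to 42.4 CPM in the progenitors, against 5.92 to 12.0 and 7.21 to 12.6 CPM in the other cells. In the caudal progenitors, Hoxb1 had means of 79.1 CPM in Tet-TKO and 103 CPM in WT host libraries and Gbx2 of 48.8 and 48.6 CPM. These were above their means in the spinal cord progenitors, so Hoxb1 and Gbx2 are not limited to the hindbrain here. Whether cells anterior to the spinal cord met the rule was not tested.

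**Figure D1:**
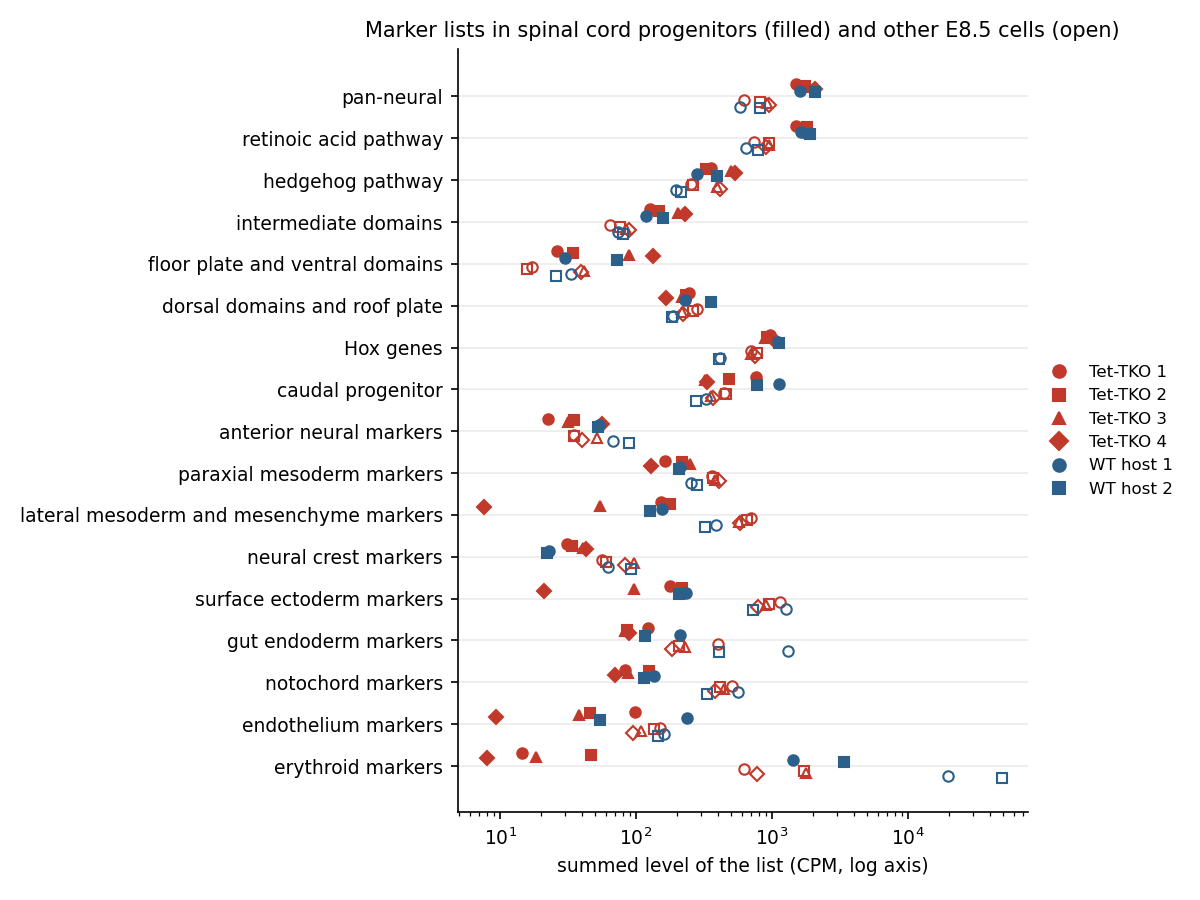
Summed level of marker and pathway lists (x axis, CPM on a log axis) in spinal cord progenitors (filled symbols) and in all other E8.5 cells (open symbols), with 1 symbol per library. Pan-neural and retinoic acid lists lie to the right of the open symbols in all 6 libraries, and surface ectoderm, notochord and lateral mesoderm lists lie to the left.

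Markers of paraxial and lateral mesoderm, surface ectoderm, gut, notochord and neural crest were lower in the progenitors than in the other cells in 6 of 6 libraries, but not absent. Paraxial mesoderm genes summed to 128 to 251 CPM in the progenitors and to 255 to 407 CPM in the other cells, and surface ectoderm genes to 20.9 to 233 CPM against 729 to 1261 CPM. Notochord genes summed to 70.2 to 136 CPM against 335 to 561 CPM, with Noto at 0 in every library. Neural crest genes summed to 22.2 to 43.1 CPM against 56.4 to 97.0 CPM, with Foxd3 at 0. Lateral mesoderm genes were at 153, 179, 54.8 and 7.56 CPM in the Tet-TKO libraries and at 156 and 126 CPM in the WT host ones, so the deep libraries 3 and 4 held the least. Endothelium genes did not follow this in every library. They were at 98.1, 45.8, 37.9 and 9.33 CPM in the Tet-TKO and at 239 and 54.3 CPM in the WT host progenitors, against 94.3 to 160 CPM in the other cells, and were thus higher in the progenitors of WT host library 1. Against both anterior neural and midbrain-hindbrain boundary cells, paraxial mesoderm and endothelium genes were higher in the progenitors in 6 of 6 libraries. Lateral mesoderm genes were higher in 5 of 6, and neural crest genes lower in 6 of 6. Surface ectoderm and gut genes were lower than in anterior neural cells in 6 of 6 but higher than in boundary cells in 5 of 6. Notochord genes were lower in 6 of 6 and 4 of 6. More pan-neural than mesoderm UMIs were found in 41 of 46, 96 of 103, 76 of 77 and 36 of 36 Tet-TKO cells and 27 of 29 and 86 of 88 WT host cells.

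Erythroid RNA differed with genotype. The haemoglobin genes summed to 13.6, 45.8, 18.3 and 8.00 CPM in the Tet-TKO progenitors and to 1395 and 3349 CPM in the WT host progenitors, and the ranges did not overlap. In the other cells of the same libraries they summed to 604 to 1757 CPM and to 19629 and 48553 CPM, and erythroid cells made up 0.724% to 2.10% of the Tet-TKO and 16.9% and 26.7% of the WT host cells. By a limit of 2% haemoglobin UMIs, 1 of the 29 and 2 of the 88 WT host progenitors, and none of the Tet-TKO ones, counted as erythroid cells themselves. Without the cells scored as doublets the log2 fold change between genotypes, tested as described further on, was -5.84 in place of -7.01 for Hba-x and -5.28 in place of -6.70 for Hbb-bh1. How erythroid cells among the progenitors and erythroid RNA from outside them share in these values was not tested.

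Hox genes were described by paralogue group. Groups 1 to 9 were present in the progenitors, from 26.4 to 62.2 CPM in group 7 up to 105 to 325 CPM in group 1, while groups 10 and 11 stayed at or below 17.3 CPM, group 12 was at 0 and group 13 was at 1.3 to 3.6 CPM. The cells thus carried the genes of the anterior and middle groups and nearly none of the most posterior ones. Caudal progenitors, taken as 788 cells of the same libraries with Sox2, T and Nkx1-2, had 366 to 623 CPM in group 8 and 306 to 569 CPM in group 9, where the spinal cord progenitors had 107 to 217 CPM and 113 to 165 CPM. Groups 8 and 9 hold the genes of the rule, so for those groups the values only describe the choice. In groups 6 and 7, which the rule did not use, the caudal progenitors had 83.7 to 143 CPM and 68.6 to 167 CPM. The spinal cord progenitors had 29.5 to 49.1 CPM and 26.4 to 62.2 CPM. All other E8.5 cells had 27.0 to 56.7 CPM and 28.8 to 52.8 CPM, so groups 6 and 7 did not set the progenitors apart from them. In group 6 the progenitors were lower than the other cells in each Tet-TKO library and higher in each WT host one. Without the rule genes, groups 8 and 9 held 0.889 to 2.62 CPM and 17.7 to 55.4 CPM in the progenitors.

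**Figure D2:**
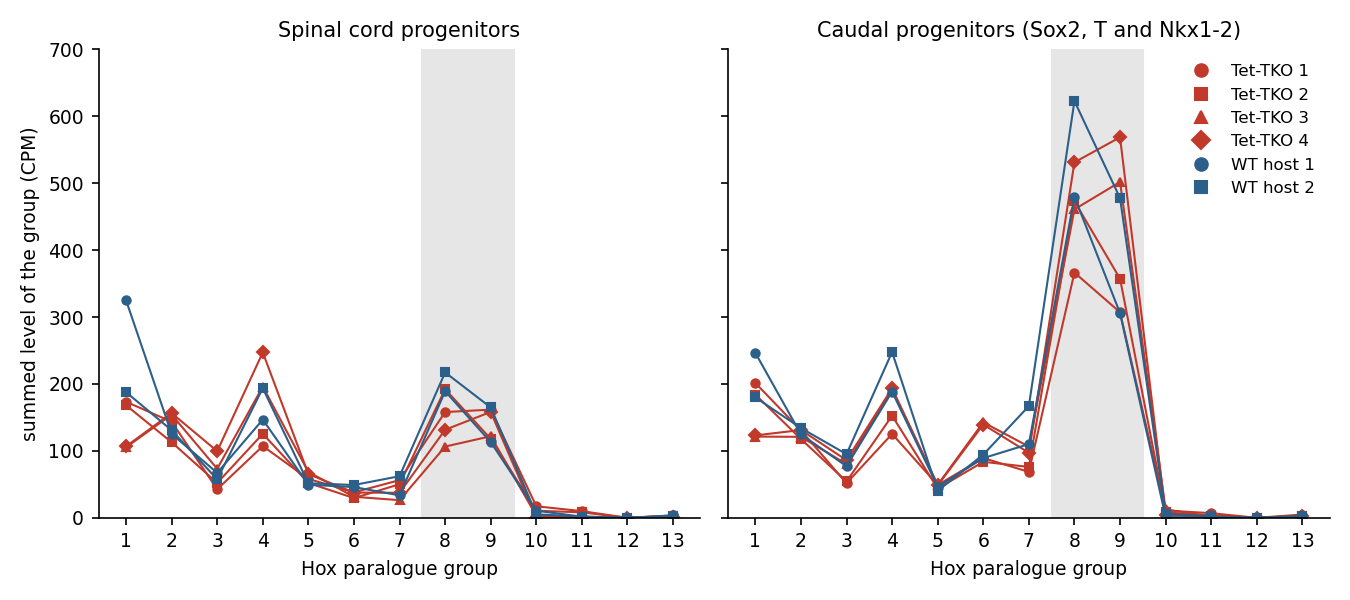
Summed level of each Hox paralogue group (x axis, groups 1 to 13; y axis, CPM) in spinal cord progenitors (left) and caudal progenitors (right), with 1 line per library. The grey band marks groups 8 and 9, which hold the rule genes, and groups 10 to 13 are near 0 in both populations.

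Against these caudal progenitors the spinal cord progenitors had lower levels of FGF and Wnt pathway genes. FGF pathway genes summed to 295 to 345 CPM against 788 to 987 CPM, and Wnt pathway genes to 459 to 569 CPM against 877 to 1009 CPM, each lower in 6 of 6 libraries. The pan-neural list was higher in 6 of 6 libraries, at 1505 to 2087 CPM against 799 to 1013 CPM. Genes of the floor plate and ventral domains summed to 26.3 to 133 CPM against 4.11 to 20.1 CPM, also higher in 6 of 6 libraries. These are descriptions of populations that were defined by marker genes of the same cells, and no test was made between them.

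The cells were then divided by whether they held an Nkx6-1 UMI, which marks the ventral side. There were 188 cells with and 191 without, and the median UMIs of a cell were 13784 to 64389 with and 14211 to 73289 without it over the 6 libraries. Cells without Nkx6-1 entered only with a pair of the other 5 genes, so the sets also differ by construction in those genes. Ptch1, the Hedgehog receptor and a target of the pathway, was at 212, 155, 241, 258, 136 and 185 CPM in cells with Nkx6-1 (the Tet-TKO libraries first, then both WT host ones), and at 84.6, 91.1, 78.1, 128, 99.6 and 74.0 CPM in cells without. It was thus higher with Nkx6-1 in 6 of 6 libraries. Gli1, another target of the pathway, had means of 18.7 and 12.2 CPM and was higher in 4 of 6 libraries, with the opposite order in Tet-TKO libraries 2 and 4. Foxa2, a floor plate transcription factor, had a mean of 27.9 CPM with and 5.79 CPM without Nkx6-1 and was higher in 6 of 6 libraries, as was Nkx6-2, a paralogue of Nkx6-1, at 13.4 CPM against 1.06 CPM. Nkx2-9, a ventral Hedgehog target, had means of 47.2 and 1.38 CPM and was higher in 5 of 6 libraries, with 0 in both sets of WT host library 1.

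The dorsal genes ran the other way. Pax3, which marks dorsal progenitors and neural crest, was at 14.4, 10.7, 25.6, 16.4, 21.7 and 36.2 CPM with Nkx6-1 and at 40.7, 46.1, 102, 38.5, 26.2 and 128 CPM without, lower with Nkx6-1 in 6 of 6 libraries. Msx1, a BMP target of the dorsal neural tube, had means of 48.8 CPM with and 104 CPM without and was lower in 5 of 6 libraries. Irx3, an intermediate gene, and Crabp1, a retinoic acid binding protein, had means of 84.5 and 92.9 CPM and of 417 and 422 CPM in the 2 sets. Irx3 was lower with Nkx6-1 in 5 of 6 libraries, while Crabp1 was higher in 3 and lower in 3, from 467 CPM with against 233 CPM without in WT host library 1 to 386 against 643 CPM in Tet-TKO library 3. WT host library 1, with 10 cells that held Nkx6-1, was the exception for Msx1, at 76.0 CPM with and 65.5 CPM without, and its Pax3 values rest on 4 and 10 UMIs. In the other 5 libraries the cells with Nkx6-1 held more RNA of Foxa2, Nkx6-2 and Ptch1 and less of Pax3 and Msx1. Nkx2-9 was also higher in CPM, but in Tet-TKO library 2 it rests on 6 UMIs with and 6 without Nkx6-1. The order of Nkx6-2 rests on 3 and 1 UMIs in Tet-TKO library 1 and on 1 and 0 UMIs in WT host library 1. That of Foxa2 rests on 5 and 7 UMIs in WT host library 1. Foxa2 is also in the notochord and gut lists, and the part of such RNA in its values was not tested. Mesoderm genes moved with the same split. Twist1, a mesenchyme factor, had means of 37.4 CPM with and 62.0 CPM without Nkx6-1 and was lower with it in 6 of 6 libraries. Hand1, a lateral mesoderm factor, had means of 15.1 and 29.8 CPM and was lower in 5 libraries, with 0 in both sets of Tet-TKO library 4. The part of mesoderm RNA in the split was not tested.

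**Figure D3:**
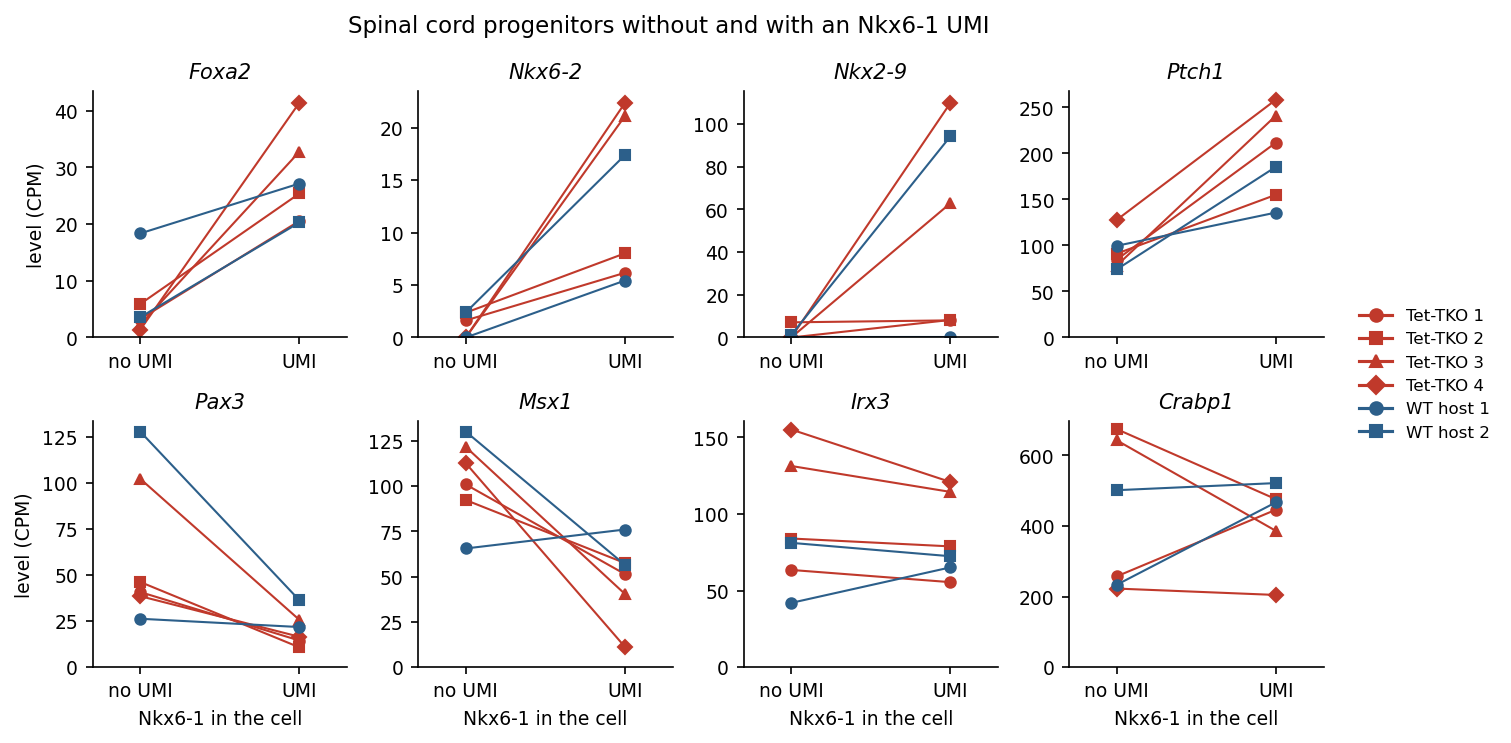
Level (y axis, CPM) of 8 genes that the rule did not use, in spinal cord progenitors without and with an Nkx6-1 UMI (x axis), with 1 line per library. Foxa2, Nkx6-2 and Ptch1 are higher with Nkx6-1 in 6 of 6 libraries, and Pax3 is lower in 6 of 6.

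The share of spinal cord progenitors among the cells of a library was compared between genotypes. Because the rule depends on depth, each cell was first thinned to 5000 UMIs, and cells with fewer UMIs were left out. This kept 6761, 9035, 2228 and 921 Tet-TKO cells and 7707 and 8314 WT host cells. Of these, 3, 20, 13 and 8 cells in the Tet-TKO libraries and 3 and 13 in the WT host ones met the rule. Those that met it made up 0.0444%, 0.221%, 0.583% and 0.869% of the Tet-TKO cells so kept and 0.0389% and 0.156% of the WT host ones. Exact binomial 95% intervals ran from 0.00915% to 0.130% in Tet-TKO library 1 up to 0.376% to 1.70% in library 4. The intervals cover counting error only. The mean was 0.429% ± 0.369 (SD, n = 4) in Tet-TKO and 0.0976% ± 0.0830 (SD, n = 2) in WT host libraries, and 3 of 4 Tet-TKO libraries lay above both WT host libraries. The difference of 0.332 percentage points did not pass a two-sided exact permutation test (p = 0.267), and with 4 against 2 libraries the smallest p such a test can give is 0.133. After thinning to 3000 UMIs the difference was 0.0598 (exact permutation p = 1), with 1 Tet-TKO library above and 1 below both WT host libraries. Without thinning the shares were 0.653%, 1.08%, 3.34% and 3.56% against 0.351% and 0.974%, and the 2 deepest libraries were again the highest.

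Genes were then compared between genotypes on the summed counts of the progenitors, with the quasi-likelihood test of edgeR. The Benjamini-Hochberg adjustment ran over 9213 genes. The 10 rule genes among them stayed in the fit but were left out of all calls and counts, which leaves 9203 genes tested. The threshold for a call was an adjusted p of at most 0.01 together with an absolute log2 fold change of at least 1. Tet-TKO libraries entered as 4 samples, although libraries 1 and 2, and libraries 3 and 4, differed less from each other than from the remaining pair. In all, 22 genes were called (0.239% of those tested), 12 higher in Tet-TKO (0.13%) and 10 lower (0.109%), and in each of the 22 the ranges of the libraries did not overlap. Over all genes tested, 730 (7.93%) lay above both WT host libraries in all 4 Tet-TKO libraries and 1017 (11.1%) had all 4 below, and 690 genes (7.5%) had an unadjusted p under 0.05. A fit without WT host library 1 or 2 leaves a single WT host library, so only the Tet-TKO libraries give its spread. The number of calls in such fits is not given. With Tet-TKO libraries 1 and 2 summed, and likewise 3 and 4, 26 genes were called, of which 20 were among the 22. Of the 22 genes, 6 are tdTomato and haemoglobin genes, 3 belong to gene lists described here, 9 are other named genes and 4 are predicted genes, which are not named here. In bulk sums, fewer cells that express a gene and less RNA in each cannot be told apart.

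**Figure D4:**
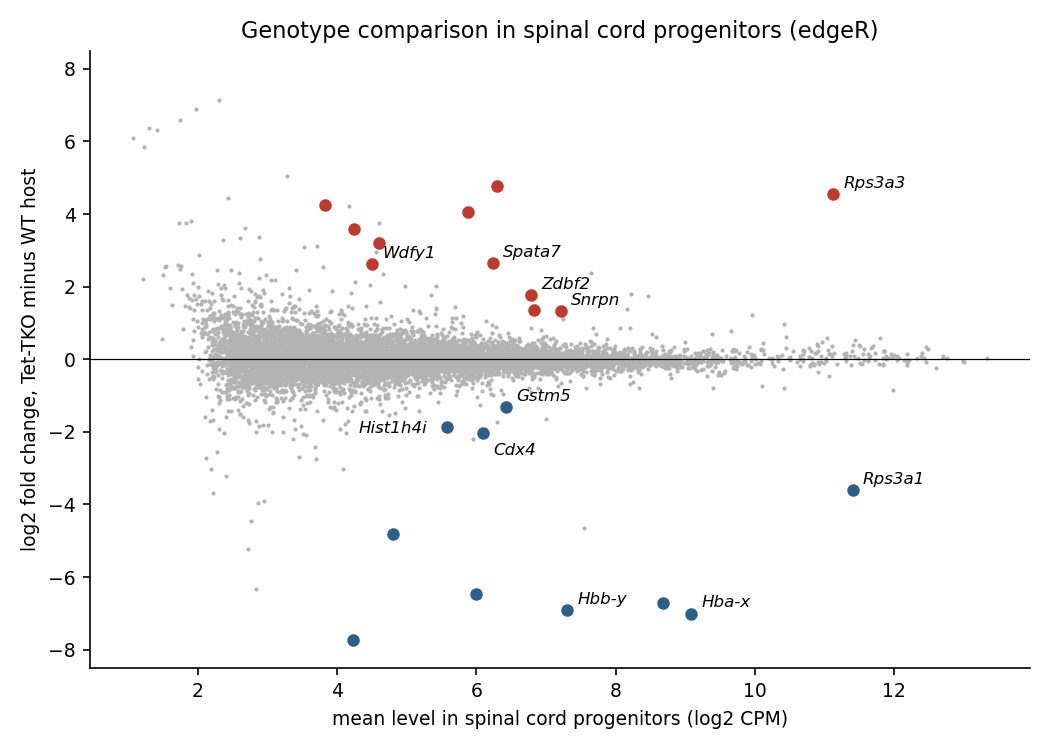
Log2 fold change between Tet-TKO and WT host spinal cord progenitors (y axis) against mean level (x axis, log2 CPM) for the genes tested, with genes called higher in Tet-TKO in red and genes called lower in blue. Called genes are few among the 9203 tested, and tdTomato lies beyond the upper limit of 8.5 and is not drawn.

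As a check of the labels, tdTomato was at 103, 97.3, 126 and 142 CPM in the Tet-TKO progenitors and at 0 CPM in both WT host libraries. The Tet genes themselves do not check the genotype in these data, since a deletion of part of a gene can leave its 3′ end to be counted. Tet1 was at 9.08, 18.2, 24.7 and 24.4 CPM against 35.4 and 24.9 CPM, and Tet3 at 13.6, 17.6, 36.2 and 40.9 CPM against 38.89 and 29.4 CPM, with overlapping ranges for Tet3. Tet2 was at or below 7.58 CPM in every library.

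The caudal gene Cdx4 was lower in the Tet-TKO progenitors. Cdx4 (ENSMUSG00000031326, mm10 chrX:103321398-103330592, plus strand) encodes a homeobox factor that activates Hox genes in the posterior embryo. It was at 32.7, 27.6, 25.0 and 21.8 CPM in the Tet-TKO progenitors and at 124 and 95.5 CPM in the WT host progenitors, so the highest Tet-TKO library lay well under the lower WT host library. The log2 fold change was -2.02 (SE 0.22, adjusted p = 0.0019 by edgeR). In the other E8.5 cells Cdx4 was at 43.5 to 50.4 CPM in the Tet-TKO and at 44.1 and 45.7 CPM in the WT host libraries, with no such gap. The make-up of those cells differed. Without thinning, caudal progenitors were 2.65% to 5.34% of the Tet-TKO cells and 1.13% and 1.02% of the WT host cells. Whether Cdx4 was alike within each of the other cell types was not tested. In the caudal progenitors it was at 181, 188, 248 and 188 CPM against 346 and 483 CPM, and the log2 fold change of -1.04 (SE 0.16, adjusted p = 0.0217 by edgeR) was not called at 0.01. The 2 changes differed by -0.96 (SE 0.22, adjusted p = 0.365 by edgeR), so the change was not shown to be larger in the spinal cord progenitors.

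The call of Cdx4 depended on how the progenitors were chosen. With at least 3 of the 6 progenitor genes required, the log2 fold change was -1.17 (adjusted p = 0.439 by edgeR), and with the progenitors chosen after thinning to 10000 UMIs, an alternative added after the data were seen, it was -1.05 (adjusted p = 0.406). It was -1.83 without WT host library 1 and -2.22 without WT host library 2. These fits leave a single WT host library, so only the Tet-TKO libraries give their spread. The call held in 15 of 19 alternatives, with these fits among those where it was lost. After thinning to 5000 UMIs, a Cdx4 UMI was found in 15.2%, 14.6%, 10.4% and 5.56% of the Tet-TKO progenitors and in 34.5% and 31.8% of the WT host ones, against 1.53% of 3591 WT host erythroid cells, which should lack it. Unthinned, the shares were 37.0%, 20.4%, 31.2% and 22.2% against 65.5% and 46.6%. Before thinning those erythroid cells had median depths of 19234 and 16206 UMIs, and the progenitors of the same libraries 16982 and 14906 UMIs. Cdx4 is X-linked, and Xist, the RNA that silences 1 X chromosome in female cells, was at 18.2, 1.26, 32.9 and 0 CPM in the Tet-TKO and at 306 and 417 CPM in the WT host progenitors. Over the 321 X-linked genes tested the median log2 fold change was 0.01 and 158 were below 0. Cdx4 was the only one of the 321 called, where 22 of all 9203 genes (0.239%) were. The 4 Y-linked genes summed to 15.4, 10.0, 7.58 and 11.6 CPM against 49.5 and 34.7 CPM.

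The other genes of the caudal progenitor list lay on the same side. All 9 of its 11 genes that were tested had a log2 fold change below 0, against 47.4% of all genes tested, their median was -0.79 against 0.02 over all genes, and 5 of the 9 did not overlap between genotypes, against 11.1% of all genes. Only Cdx4 was called, where 0.239% of all genes tested were. The rule dropped unequal parts of the libraries for a UMI of T, En1 or En2. The part of this step in the values of the caudal genes, Cdx4 included, was not tested. The following genes were named after their values were seen. Cdx1, a related homeobox factor, was at 126, 59.6, 43.5 and 20.4 CPM against 262 and 128 CPM, with a log2 fold change of -1.64 (adjusted p = 0.51 by edgeR). It was called with the replicate number as a block (-1.001, adjusted p = 7.07e-07) and with no filter on low counts (-1.60, adjusted p = 1.6e-14), but not by DESeq2 (-1.61, adjusted p = 1) or with Tet-TKO libraries 1 and 2, and 3 and 4, summed (-1.63, adjusted p = 0.214 by edgeR). The block fit rests on libraries 1 and 2 of each genotype, since no WT host library is numbered 3 or 4. With no filter, adjusted p was far smaller for other genes too. For Hba-x it was 3.98e-283 by edgeR, against 3.23e-05 by edgeR with the filter. The p-values of these 2 fits thus cannot be set beside those of the main fit. Over 19 alternatives the log2 fold change of Cdx1 ranged from -2.20 to -0.83. Cdx2, the factor that drives posterior axis growth, was at 170, 77.2, 34.0 and 37.3 CPM against 166 and 107 CPM, so the ranges overlapped, and the log2 fold change of -0.79 turned to 0.08 when at least 3 of the 6 progenitor genes were required. Nkx1-2, which marks caudal epiblast, was at 38.1, 24.5, 23.6 and 33.8 CPM against 72.5 and 45.8 CPM, with a log2 fold change of -0.93 (adjusted p = 0.4 by edgeR). Lef1, a nuclear effector of Wnt signalling, was at 54.5, 41.4, 40.2 and 32.4 CPM against 86.6 and 87.7 CPM, with a log2 fold change of -1.05 (adjusted p = 0.122 by edgeR) that passed only with no filter on low counts (-1.02, adjusted p = 0.000783).

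**Figure D5:**
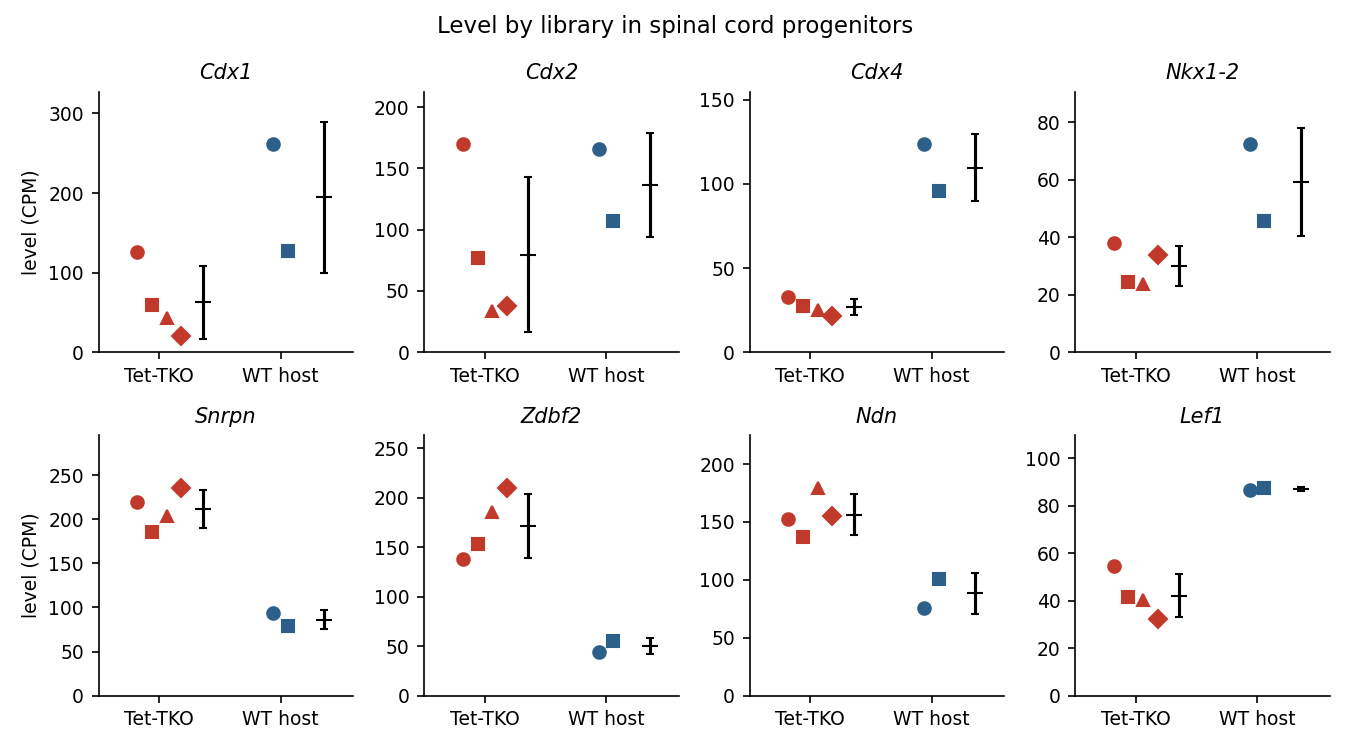
Level (y axis, CPM) of 8 genes in spinal cord progenitors by library, with 1 symbol per library in the order of its number and bars for the mean ± SD (n = 4 Tet-TKO, n = 2 WT host). The groups overlap for Cdx2 and do not overlap for the other 7 genes, of which Cdx4, Snrpn and Zdbf2 were called.

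A pair of imprinted genes was higher in the Tet-TKO progenitors. Snrpn (mm10 chr7:59982495-60140219, minus strand), a paternally expressed gene of a neuronal imprinted cluster, was at 220, 186, 204 and 236 CPM against 93.7 and 78.5 CPM, a log2 fold change of 1.34 (SE 0.17, adjusted p = 0.00537 by edgeR). Zdbf2 (mm10 chr1:63273265-63314576, plus strand), also expressed from the paternal allele, was at 138, 153, 185 and 210 CPM against 44.2 and 55.6 CPM, a log2 fold change of 1.77 (SE 0.20, adjusted p = 0.00306 by edgeR). In both genes the ranges of the genotypes were far apart. The call of Snrpn held in 11 of 19 alternatives. It was lost with any of Tet-TKO libraries 1, 2 and 3 left out (log2 fold changes up to 1.37), and without WT host library 1 (1.45) or 2 (1.19). The call of Zdbf2 held in 17 of 19 and was lost without WT host library 1 (1.65) or 2 (1.97). Fits without WT host library 1 or 2 leave a single WT host library, so only the Tet-TKO libraries give their spread.

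Both genes lay on the same side in the other neural populations and over all other E8.5 cells. In all other E8.5 cells Snrpn was at 226, 205, 239 and 276 CPM in the Tet-TKO libraries against 68.5 and 62.7 CPM. Zdbf2 was at 81.2, 88.2, 133 and 136 CPM there, against 25.5 and 29.0 CPM. For Snrpn the log2 fold changes were 1.20 in caudal progenitors, 1.21 in anterior neural cells and 1.64 in midbrain-hindbrain boundary cells, and for Zdbf2 they were 1.43, 1.52 and 1.48, of which only those in midbrain-hindbrain boundary cells passed the threshold (adjusted p = 0.000261 and 0.002 by edgeR). These populations share libraries with the spinal cord progenitors, so the values stand side by side and are not independent. The differences between populations were tested as interactions, and none passed for Snrpn (adjusted p from 0.894 to 0.969 by edgeR) or for Zdbf2 (from 0.780 to 0.961). Of the 28 genes of the imprinted list, 24 were tested and 2 were called, where 0.239% of all genes tested were. Of the 24, 15 had a log2 fold change above 0, with a median of 0.20. In 7 of them every Tet-TKO library was above the WT host range (7.93% of all genes were). Ndn, from the same cluster as Snrpn and named after its values were seen, was at 153, 137, 180 and 155 CPM against 76.0 and 101 CPM, but its log2 fold change of 0.81 did not pass (adjusted p = 0.107 by edgeR).

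Because TET enzymes act on CG dinucleotides, the promoters of the 3 list genes that were called are printed, with each CG in capitals. They are the 250 bases before the most downstream RefSeq start of each gene, 5′ to 3′ on the strand of the gene in GRCm38.p6, at chrX:103321148-103321397 for Cdx4, chr7:60005200-60005449 on the minus strand for Snrpn, which has 4 starts listed, and chr1:63273019-63273268 for Zdbf2, which has 2.
Cdx4: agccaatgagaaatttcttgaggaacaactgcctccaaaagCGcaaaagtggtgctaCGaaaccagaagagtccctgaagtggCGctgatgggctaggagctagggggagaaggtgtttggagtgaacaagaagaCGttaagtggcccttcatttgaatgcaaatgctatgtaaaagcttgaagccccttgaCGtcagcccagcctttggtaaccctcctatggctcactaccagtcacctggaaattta
Snrpn: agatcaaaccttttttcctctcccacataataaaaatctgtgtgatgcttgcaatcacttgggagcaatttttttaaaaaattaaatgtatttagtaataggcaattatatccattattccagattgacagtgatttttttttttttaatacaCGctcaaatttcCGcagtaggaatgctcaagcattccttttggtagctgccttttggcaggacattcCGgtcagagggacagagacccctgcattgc
Zdbf2: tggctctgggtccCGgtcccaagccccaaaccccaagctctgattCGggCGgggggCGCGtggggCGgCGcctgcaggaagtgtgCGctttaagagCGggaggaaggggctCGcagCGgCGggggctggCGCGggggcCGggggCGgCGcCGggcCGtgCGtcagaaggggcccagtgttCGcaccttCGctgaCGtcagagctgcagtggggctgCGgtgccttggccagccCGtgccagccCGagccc
The window of Cdx4 holds 5 CG and that of Snrpn 3, against a median of 6 over 32851 promoter windows of the same length, and 55.6% and 71.0% of windows hold at least as many. The Zdbf2 window holds 26 CG, and 9.59% of windows hold at least as many. The search covered only these letters in these windows, and methylation was not measured in these libraries. In the cell types that the study profiled for methylation, it placed TET-dependent demethylation at distal regulatory regions, with little effect at promoters.

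Among the other called genes, Spata7 (mm10 chr12:98628157-98669815), a gene of the photoreceptor cilium, was at 153, 129, 115 and 124 CPM against 19.4 and 21.6 CPM, a log2 fold change of 2.66 (SE 0.23, adjusted p = 0.000359 by edgeR). Wdfy1, an endosomal protein gene, was at 34.5, 38.3, 46.1 and 39.6 CPM against 3.54 and 7.85 CPM, a log2 fold change of 2.62 (adjusted p = 0.00366 by edgeR). The processed pseudogene BC002163 had a log2 fold change of 3.20. Among the lower genes, Hist1h4i, a histone H4 gene with near-identical relatives, was at 18.2, 23.8, 21.3 and 19.1 CPM against 65.4 and 83.8 CPM, a log2 fold change of -1.85, and Gstm5, a glutathione transferase, was at 48.1, 39.5, 58.1 and 47.1 CPM against 125 and 121 CPM, a log2 fold change of -1.32. The calls held in 17 of 19 alternatives for Spata7, 16 for Hist1h4i, 11 for Wdfy1, and 9 for each of BC002163 and Gstm5. None of these calls held without WT host library 1 or without WT host library 2. Those fits leave a single WT host library, so only the Tet-TKO libraries give their spread. For each of these genes the log2 fold change had the same sign in the caudal, anterior and midbrain-hindbrain populations.

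Ribosomal protein genes and their copies were also called, and these calls are uncertain. Rps3a1 was lower by -3.61 and the pseudogene Rps3a3 higher by 4.56 on the log2 scale, but the transcripts of the 2 are 98.9% identical over 795 aligned bases. Their sum was 5041, 4862, 4530 and 4394 CPM in Tet-TKO and 5373 and 5025 CPM in WT host progenitors, so the sum differed far less than either copy did. Rps13-ps1 and Rps15a-ps8, at 4.06 and 4.76 on the log2 scale, are 99.6% and 92.2% identical to their parent genes. Unlike for Rps3a1, the sum of parent and copy was higher in every Tet-TKO library for these, at 2562 to 3009 CPM against 2361 and 2467 CPM for Rps13 and at 2822 to 3215 CPM against 2519 and 2483 CPM for Rps15a.

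No gene was called in the lists for patterning and signalling, where 0.239% of all genes tested were called. At that share, lists of this size can hold no call. Of the Hedgehog pathway, 9 of 10 genes tested had a log2 fold change above 0, against 52.6% of all genes, with a median of 0.39. Its most abundant gene Ptch1 was at 141, 121, 180 and 216 CPM against 111 and 124 CPM (log2 fold change 0.49, adjusted p = 0.653 by edgeR), with the higher values in libraries 3 and 4. Of the Notch pathway, 7 of 9 were above 0, with a median of 0.84, and Hes1, the Notch target that holds progenitors undifferentiated, was at 74.5, 65.9, 112 and 121 CPM against 53.0 and 41.9 CPM (log2 fold change 1.05, adjusted p = 0.252 by edgeR). Of the dorsal list, 7 of 8 were below 0, with a median of -0.51, and Pax3 was at 29.1, 29.5, 54.2 and 23.6 CPM against 24.8 and 86.4 CPM. The 4 genes tested of the floor plate and ventral list were above 0, with a median of 0.51, and Nkx2-9 was at 3.63, 7.53, 39.3 and 74.2 CPM against 0 and 43.2 CPM, so the libraries of each genotype differed widely from each other.

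The retinoic acid list had 4 of 10 genes above 0 and a median of -0.06, with Crabp2, a retinoic acid binding protein, at 637, 781, 1019 and 1174 CPM against 656 and 904 CPM. The Wnt and BMP lists each had 9 of 12 genes below 0, with a median of -0.17 in both, and the FGF list had 8 of 12 below 0, with a median of -0.25. Of the pan-neural list 8 of 12 genes were above 0, with a median of 0.13, and Sox11 was at 259, 301, 360 and 414 CPM against 226 and 312 CPM. The Hox list had 8 of 21 genes tested above 0 and a median of -0.13. The neurogenesis list had 3 of 7 above 0, and Stmn2, a tubulin-binding protein of young neurons, was at 201, 143, 85.1 and 40.9 CPM against 161 and 154 CPM. S phase genes were split 10 and 10, and G2 and M phase genes 8 above and 12 below 0. The 8 genes of DNA methylation enzymes that were tested were all below 0, with a median of -0.25 and Dnmt1 at 96.3, 110, 126 and 116 CPM against 125 and 110 CPM. The shares of progenitors with a UMI of each of 14 patterning markers, thinned to 5000 UMIs, could not pass by design, since the smallest p of an exact permutation test here is 0.133. For 2 of the 14, Cdx1 and Cdx4, the test gave that smallest p (adjusted p = 0.747).

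The genotype effects were compared between populations by an interaction term in edgeR. Against caudal progenitors 1 gene was called (0.00975% of those tested), the haemoglobin gene Hbb-y at -4.58. Hbb-y was at 0, 5.65, 3.65 and 0.445 CPM against 40.7 and 589 CPM in the spinal cord progenitors, and at 1.16, 3.70, 209.8 and 3.25 CPM against 56.7 and 720 CPM in the caudal progenitors. Tet-TKO library 3 stood apart in the latter, and with it left out 0 genes were called by edgeR and 473 had an unadjusted p under 0.05. Against anterior neural cells 2 genes were called (0.0173%), Wls at -1.26 and Rps3a3 at -1.54. Wls, which carries Wnt ligands to the cell surface, was at 138, 126, 166 and 168 CPM in Tet-TKO spinal cord progenitors and at 171 and 196 CPM in WT host ones, while in anterior neural cells it was at 112, 94.5, 153 and 172 CPM against 74.6 and 63.4 CPM. Against midbrain-hindbrain boundary cells 1 gene was called (0.00986%), Gap43 at -1.72, a growth cone protein at 101, 97.9, 84.8 and 85.3 CPM against 86.6 and 89.6 CPM in the spinal cord progenitors. In the boundary cells Gap43 was at 100, 67.8, 85.5 and 78.5 CPM against 25.4 and 22.9 CPM, so the ranges of the genotypes were apart there and overlapped in the spinal cord progenitors. Without WT host library 1 or 2 a single WT host library remains, so such fits cannot show whether the interaction calls depend on the library left out.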

How the data were processed

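The authors aligned reads to mm10 with Cell Ranger (version 3.1.0 in the header of the count matrices, another version in the methods) and deposited raw counts of UMIs by barcode for 55422 features, tdTomato included, without normalisation. Cells were kept from 1500 UMIs upwards, unless mitochondrial genes took over 30% or ribosomal protein genes over 35%. UMIs of spinal cord progenitors were summed per library and tested by edgeR 4.0.16 (filterByExpr, TMM, glmQLFTest) in R 4.3.3, 4 Tet-TKO against 2 WT host libraries. Rule genes stayed in the fit and the adjustment but were not counted as calls. The p-values measure the spread between these libraries only. Sums needed at least 10 cells. Comparison populations were chosen by marker UMIs in the same way. Shares used exact permutation tests. Doublets were scored with Scrublet in scanpy 1.11.5, at 0.8% per 1000 barcodes, and removed only as an alternative. Reads of near-identical copies can be assigned to either gene. The tests were tried on simulated data.

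Members and gene lists were chosen with earlier results of these data known. The genes named are the rule genes, list genes that were called, up to 10 other called genes in each direction without overlap between genotypes, checks, genes called in an interaction, and examples among the 4 most abundant genes of each list with no call. Gli1 and the genes so marked in the text were named after their values were seen. Predicted genes, Xist and Y-linked genes were left out of the named called genes. Alternatives were DESeq2 1.42.0, its size factors, no filter on low counts, other marker and depth minimums, doublet removal, equal cells or UMIs, Tet-TKO libraries 1 and 2, and 3 and 4, summed, the replicate number as a block, and omission of single libraries. The replicate numbers are not stated to pair libraries.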

Additional observations from a re-analysis of the deposited data

Results flagged for a closer look

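Of 85 values tested for a library far from the other 3 of the Tet-TKO group, 3 lay beyond Dixon's limit. Chance alone puts about 1 in 20 such values beyond it. They were the summed pluripotency list in library 1, at 279 CPM, the summed gut endoderm list in library 1, at 123 CPM, and Hba-a2 in library 3, at 0.281 CPM, which is 1 UMI.

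The genotype effect differed between spinal cord progenitors and another population of the same libraries, by the interaction test of edgeR, for 4 genes. The difference of the log2 fold change was -4.58 for Hbb-y against caudal progenitors, -1.54 for Rps3a3 and -1.26 for Wls against anterior neural cells, and -1.72 for Gap43 against midbrain-hindbrain boundary cells. Erythroid RNA beside Hbb-y and the near-identical copy beside Rps3a3 are described above, and their part in these values was not tested.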

How the results depend on the processing

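The difference in the share of progenitors, 0.332 percentage points, was 1.50 without thinning, 0.723 after thinning to 10000 UMIs, 2.16 among Sox2 cells and 1.58 without thinning in cells of at least 5000 UMIs, the last chosen after seeing the data. It was 0.0598 after thinning to 3000 UMIs, 0.0708 with at least 3 of 6 markers, and 0.309 (exact permutation p = 0.667) with Tet-TKO libraries 1 and 2, and 3 and 4, summed, where Gstm5 was no longer called (adjusted p = 0.0133 by edgeR). It ranged from 0.185 to 0.460 with each library left out. The 22 called genes became 34 with DESeq2, 126 with no filter on low counts, and 16 to 28 with each Tet-TKO library left out. The genes called in the interactions became 31 for caudal, 47 for anterior and 33 for boundary cells with no filter, and 1 for anterior and 3 for boundary cells with only cells whose tdTomato matched their fraction. With each Tet-TKO library left out they ranged from 0 to 2, from 2 to 5 and from 1 to 3. Fits without WT host library 1 or 2 leave a single WT host library, and their numbers of calls are not given. Whether equal replicate numbers mark paired libraries is not stated in the labels. Deviations of Tet-TKO library 1 and WT host library 1 correlated at 0.164 and those of the libraries 2 at -0.12, but the deviations of only 2 WT host libraries mirror each other, so this cannot settle the pairing. With the replicate number as a block 75 genes were called and the share differed by 0.0352 percentage points. No WT host library is numbered 3 or 4, so this genotype comparison rests on libraries 1 and 2 of each genotype. Tet-TKO libraries 3 and 4 add nothing to it, and it is not an adjusted form of the comparison of all 6 libraries. Over the 22 called genes, predicted ones included, and Cdx1, Cdx2, Lef1 and Ndn, 413 alternative values kept direction and side of the threshold, 74 fell short of it, 3 newly passed it and 1 turned, Cdx2 at a log2 fold change of 0.0795 with at least 3 of 6 markers. Without thinning the differences in the share of cells with a UMI turned for Pax3 to 3.55, Pax7 to 4.08, Nkx6-2 to 4.72 and Dll1 to 1.93 percentage points. The causes were not tested. Members chosen after thinning to 5000 UMIs were not tested for expression, since only 3 libraries held 10 cells or more. With 2 WT host libraries of 29 and 88 progenitors, the lack of a call does not show that genes of low level, or with small changes, were alike.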
